A study of Mus musculus with 4 samples.

Results

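Endothelial identity genes are those by which the cells that line blood vessels are recognised. The 10 genes described here are Cdh5, Pecam1, Flt1, Kdr, Tek, Tie1, Eng, Esam, Ly6c1 and Vwf. They were chosen by gene symbol from a table of 19230 genes of the mouse hippocampus, and all 10 were found in it. Earlier results of these data were known when they were chosen. The tissue was from C57BL/6 mice, 12 months of age, either of a control group (Ctrl), whose treatment label reads normal culture, or of a group given Licochalcone A (LA), a chalcone of licorice root, for 30 days. The labels give both groups the same strain, genotype, age and tissue, while no source used here gives the dose of LA or what the Ctrl mice received. Ctrl is represented by 2 libraries (replicates 2 and 3) and LA by 2 (replicates 1 and 2). Whether each library is a mouse of its own is not stated, and p-values therefore reflect only how far these libraries spread, which may be technical.

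Brain endothelial cells are sealed to each other by adherens and tight junctions and form the blood-brain barrier together with pericytes and astrocytes. VEGF receptors and Tie receptors on their surface control the growth and the rest of the vessel wall. Endothelial cells are a small part of brain tissue, so their transcripts are diluted in RNA of whole hippocampus. In such bulk RNA, fewer endothelial cells and less of a transcript per cell cannot be told apart.

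The unit of expression was FPKM, in which the fragments of a gene are divided by its transcript length and by the mapped fragments of the library. FPKM summed to between 386945 and 441948 per library. The size of the steps between low values gave a relative depth of 93.0% to 100% of the deepest library. Genes at 0 FPKM numbered 975 and 919 in Ctrl replicates 2 and 3, and 1361 and 1440 in LA replicates 1 and 2. Fewer genes were thus detected in LA, and the part of this in the values of low endothelial genes was not tested. Markers of hippocampal subfields were measured for 9 of 9 listed genes, with a summed level of 260 to 313 FPKM per library. One library stood apart: Ttr, the transthyretin gene of the choroid plexus, reached 7360 FPKM in Ctrl replicate 3, while the remaining Ctrl library had 12.2 FPKM and the LA libraries 47.2 and 75.2 FPKM. Results for the endothelial genes are therefore given with and without Ctrl replicate 3. The 13518 genes whose mean reached 1 FPKM were tested for LA against Ctrl by limma on the log2(FPKM + 1) scale, and p-values were adjusted over all of them with a threshold of 0.05. Fold changes on that scale understate the change of low genes. With so few libraries, limma takes the error of each gene largely from the spread of other genes of similar level.

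All 10 endothelial genes had lower mean FPKM in the LA hippocampus than in Ctrl. In 8 of the 10 both LA libraries lay below both Ctrl libraries, which held for 20.2% of the genes above 0 in any library. The 10 genes were chosen with earlier results of these data known, and they were read in the same libraries. Shares over all genes are therefore given as description and are no test of the list. The mean of Ctrl was between 1.34 times (Esam) and 3.69 times (Cdh5) that of LA. None of the differences passed the test. Of the 8 genes that reached a mean of 1 FPKM, 0 were called by limma (adjusted p from 0.378 to 0.822), where 0.141% of all genes tested were called, each of them lower. At an unadjusted p under 0.05 there were 4 of the 8, namely Cdh5, Eng, Vwf and Pecam1, against 4.06% of all genes in that direction and 7.8% in either. A log2 fold change of -0.5 or lower was found for 6 of the 8 and for 4.27% of all genes. Without Ctrl replicate 3 it was found for 3 of the 8, namely Cdh5, Eng and Vwf, and for 3.42% of all genes. Kdr and Tek did not reach the mean of 1 FPKM and were not tested. Cdh5, Vwf, Flt1, Pecam1 and Tie1 lay close to that limit, so the 8 tested genes are not to be read as the whole list.

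**Figure D1:**
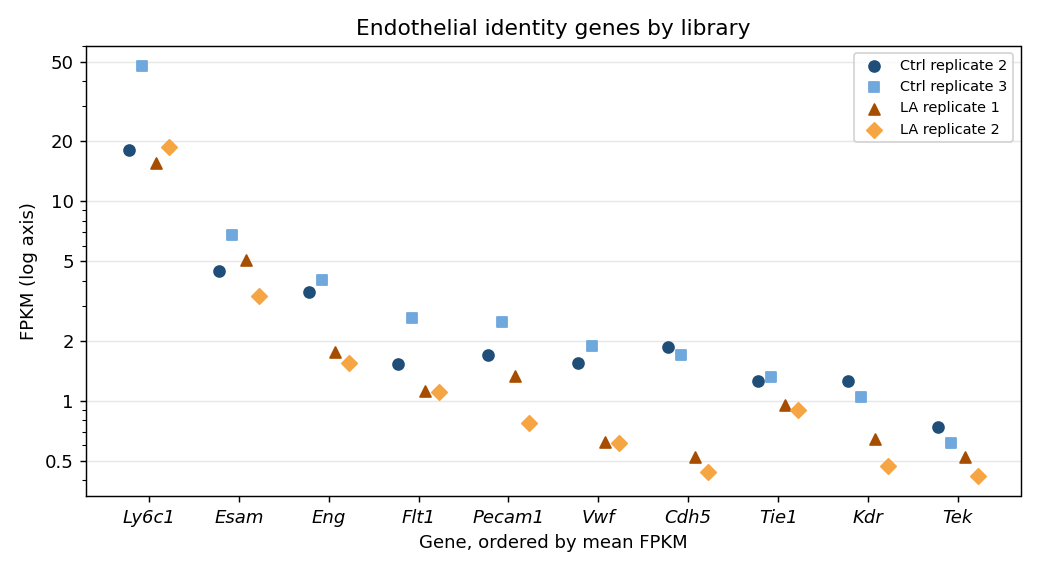
FPKM of the 10 endothelial identity genes in each library, on a log axis, ordered by mean FPKM; each point is 1 library. The 2 LA libraries lie below the 2 Ctrl libraries for all genes but Ly6c1 and Esam, and Ly6c1 stands out at 47.5 FPKM in Ctrl replicate 3.

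The levels of the 10 genes spanned a wide range, and FPKM allows such a comparison between genes because it is scaled to transcript length. Ly6c1 had the highest mean level, 25.0 FPKM, at the 82.8th percentile of all genes in the table. Esam followed with 4.91 FPKM and Eng with 2.71 FPKM, and the order Ly6c1, Esam, Eng was the same in all 4 libraries. Flt1 (1.58 FPKM), Pecam1 (1.57 FPKM), Vwf (1.17 FPKM), Cdh5 (1.13 FPKM), Tie1 (1.11 FPKM) and Kdr (0.850 FPKM) were next, and the ranges of their libraries overlapped from each gene to its neighbour. Tek had the lowest mean, 0.573 FPKM, at the 24.8th percentile. From the steps between low values and the longest coding transcript of each gene, these levels correspond to roughly 27.6 fragments (Cdh5 in LA replicate 2) up to roughly 624 fragments (Ly6c1 in Ctrl replicate 3). These numbers are approximate, but they show that the lowest values rest on few fragments.

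The junction genes came first in the comparison of the groups. Cdh5 encodes VE-cadherin, the adhesion molecule of endothelial adherens junctions, and spans 104101613 to 104144504 of chromosome 8 (GRCm38). It was 1.85 and 1.69 FPKM in Ctrl replicates 2 and 3, and 0.52 and 0.44 FPKM in LA replicates 1 and 2. Both LA values were less than the lower Ctrl value, and the libraries of each group lay close together. The means were 1.77 ± 0.113 FPKM in Ctrl and 0.480 ± 0.0566 FPKM in LA (SD, n = 2 each), a ratio of Ctrl to LA of 3.69. The log2 fold change was -0.90 (95% interval -1.40 to -0.41, adjusted p = 0.378 from limma), and -0.95 without Ctrl replicate 3. The level corresponds to roughly 125 and 113 fragments in the Ctrl libraries and roughly 32.8 and 27.6 in the LA libraries.

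Pecam1 encodes CD31, an adhesion molecule of endothelial contacts that platelets and leukocytes also carry. The gene spans 106654213 to 106715281 of chromosome 11. It was 1.70 and 2.49 FPKM in Ctrl replicates 2 and 3, and 1.33 and 0.77 FPKM in LA replicates 1 and 2. The groups did not overlap, although LA replicate 1 came near Ctrl replicate 2. On the log2 scale the difference was -0.60 (95% interval -1.18 to -0.015, adjusted p = 0.630 from limma), and -0.41 without Ctrl replicate 3.

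Esam, which encodes an adhesion molecule of endothelial tight junctions, was 4.45 and 6.77 FPKM in Ctrl replicates 2 and 3, and 5.05 and 3.35 FPKM in LA replicates 1 and 2. LA replicate 1 was above Ctrl replicate 2, so the groups overlapped. Its log2 fold change was -0.34 (95% interval -0.94 to 0.25, adjusted p = 0.795 from limma), and -0.087 without Ctrl replicate 3. Esam and Cdh5 thus differed in size within the same libraries. The ratio of Esam to Cdh5 was 2.41 and 4.01 in the Ctrl libraries against 9.71 and 7.61 in the LA libraries, a difference for which no test was run.

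Flt1 and Kdr encode the VEGF receptors 1 and 2. Kdr carries most of the growth signal of VEGF-A, while Flt1 binds the same ligand tightly and also exists as a soluble form, which a value per gene does not separate. Flt1 was 1.52 and 2.59 FPKM in Ctrl replicates 2 and 3, and 1.12 and 1.10 FPKM in LA replicates 1 and 2. The LA libraries were nearly alike and below both Ctrl libraries, while the Ctrl libraries were far apart. For Flt1 the log2 fold change was -0.51 (95% interval -1.08 to 0.058, adjusted p = 0.684 from limma), and -0.26 without Ctrl replicate 3. Kdr was 1.25 and 1.04 FPKM in Ctrl replicates 2 and 3, and 0.64 and 0.47 FPKM in LA replicates 1 and 2. The groups did not overlap, and Ctrl had 2.06 times the mean of LA. Kdr entered only the fit without a filter, where its log2 fold change was -0.46 (95% interval -0.80 to -0.13, adjusted p = 0.677 from limma). The ratio of Flt1 to Kdr was 1.22 and 2.49 in Ctrl against 1.75 and 2.34 in LA, so the groups overlapped in it.

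Tek and Tie1 encode the Tie receptors. Tek, also called Tie2, is the receptor of the angiopoietins, and Tie1 acts beside it as a partner without a well-known ligand of its own. Tek was 0.74 and 0.61 FPKM in Ctrl replicates 2 and 3, and 0.52 and 0.42 FPKM in LA replicates 1 and 2. Both LA libraries were lower than both Ctrl libraries by a small amount. In the fit without a filter its log2 fold change was -0.19 (95% interval -0.45 to 0.076, adjusted p = 0.758 from limma). Tie1 was 1.26 and 1.31 FPKM in Ctrl replicates 2 and 3, and 0.95 and 0.90 FPKM in LA replicates 1 and 2. The replicates agreed closely and the groups did not overlap. Limma gave a log2 fold change of -0.25 (95% interval -0.74 to 0.24, adjusted p = 0.822 from limma), and -0.23 without Ctrl replicate 3. The mean of Ctrl was 1.39 times that of LA for Tie1 and 1.44 times for Tek, near the low end of the 10 genes, and the ratio of Tie1 to Tek was between 1.70 and 2.15 in the 4 libraries.

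Eng encodes endoglin, a co-receptor for ligands of the TGF-beta and BMP family on endothelial cells. The gene spans 32646595 to 32682669 of chromosome 2 (GRCm38). Eng was 3.50 and 4.03 FPKM in Ctrl replicates 2 and 3, and 1.75 and 1.55 FPKM in LA replicates 1 and 2. The groups were far apart, and the replicates of each group were close. The means were 3.77 ± 0.375 FPKM in Ctrl and 1.65 ± 0.141 FPKM in LA (SD, n = 2 each), a ratio of 2.28. The log2 fold change was -0.85 (95% interval -1.31 to -0.38, adjusted p = 0.384 from limma), and -0.76 without Ctrl replicate 3.

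Vwf encodes von Willebrand factor, the clotting protein that endothelial cells and megakaryocytes store and release. The gene spans 125552948 to 125686679 of chromosome 6 (GRCm38). Vwf was 1.55 and 1.89 FPKM in Ctrl replicates 2 and 3, and 0.62 and 0.61 FPKM in LA replicates 1 and 2. The LA libraries were nearly alike and the groups did not overlap. The means were 1.72 ± 0.240 FPKM in Ctrl and 0.615 ± 0.00707 FPKM in LA (SD, n = 2 each), a ratio of 2.80. The log2 fold change was -0.75 (95% interval -1.25 to -0.25, adjusted p = 0.461 from limma), and -0.66 without Ctrl replicate 3. The 5 measured platelet markers, read because platelets also contain Vwf, summed to 1.80 to 3.90 FPKM per library, with Treml1 at 0 in a library.

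**Figure D2:**
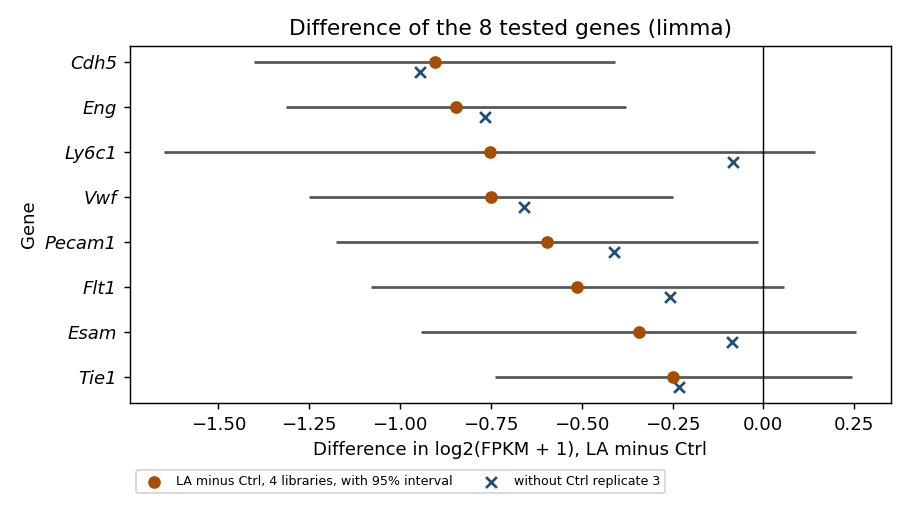
Difference between LA and Ctrl of the 8 tested genes in log2(FPKM + 1), with the 95% interval from limma as a line (n = 2 libraries per group); crosses give the value without Ctrl replicate 3. All 8 points lie below 0, and the interval excludes 0 for Cdh5, Eng, Vwf and Pecam1. The crosses lie closer to 0 than the points for all genes but Cdh5, by most for Ly6c1, Esam and Flt1.

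Ly6c1 encodes a small surface protein anchored by a lipid, which in the mouse brain is abundant on endothelial cells and elsewhere is carried by blood cells. The gene spans 75044018 to 75048920 of chromosome 15 (GRCm38). Ly6c1 was 18.2 and 47.5 FPKM in Ctrl replicates 2 and 3, and 15.6 and 18.7 FPKM in LA replicates 1 and 2. Ctrl replicate 3 alone was high, and the other 3 libraries were alike. The log2 fold change was -0.75 (95% interval -1.65 to 0.14, adjusted p = 0.702 from limma). It was -0.084 without Ctrl replicate 3 and -1.42 without Ctrl replicate 2, where limma gave an adjusted p of 0.00727 and called 1.41% of all genes lower. That fit holds 1 Ctrl library, so its error comes from the LA libraries and the spread of other genes, and the gap between the Ctrl libraries is left out of it. One library thus decides the value of Ly6c1.

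The gene has a close neighbour, Ly6c2, a marker of monocytes, and reads can be hard to assign between them. Over 396 coding bases the Ly6c1 and Ly6c2 transcripts of GENCODE M21 were identical at 387 (97.7%), with a longest shared run of 188 bases. The 60 coding bases from position 6 to 65, counted from the start codon, hold 6 of the differences and are shown because reads of the pair can be told apart there; capitals mark the bases that differ.
Ly6c1: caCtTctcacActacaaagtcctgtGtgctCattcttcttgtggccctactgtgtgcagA
Ly6c2: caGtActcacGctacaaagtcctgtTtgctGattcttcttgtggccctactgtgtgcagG
Ly6c2 was listed at 0.31 and 0.32 FPKM in Ctrl and at 0.13 and 0.26 FPKM in LA, so nearly all signal of the pair was assigned to Ly6c1. How the authors' counting treated shared reads is not given in the sources used here, and the split between the genes is uncertain. Ly6a, another member of the Ly6 family that brain endothelium expresses, had the same order of the Ctrl libraries, with 7.10 and 18.0 FPKM in Ctrl replicates 2 and 3 and 6.55 and 11.8 FPKM in LA replicates 1 and 2. The ratio of Ly6c1 to Ly6a was 2.56 and 2.64 in Ctrl and 2.38 and 1.58 in LA. Among 6 tested genes of the Ly6 list, which leaves out Ly6c1, limma called 0 (0 at an unadjusted p under 0.05), 4 had a positive and 2 a negative log2 fold change, and the median was 0.031 (-0.11 to 0.089 with one library left out).

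Within the Ctrl group the 10 genes did not move together. The ratio of Ctrl replicate 3 to Ctrl replicate 2 was 2.61 for Ly6c1, 1.70 for Flt1, 1.52 for Esam and 1.46 for Pecam1. It was 0.824 for Tek, 0.832 for Kdr, 0.914 for Cdh5 and 1.04 for Tie1. With 2 Ctrl libraries, leaving out Ctrl replicate 3 moves a log2 fold change by an amount that the 2 Ctrl values fix. The log2 fold changes of the genes with the larger ratios therefore had to come nearer to 0. Those of Cdh5, Eng, Vwf and Tie1 moved by 0.1 or less. Cldn5, the main claudin of the barrier and named after its values were seen, was likewise high in Ctrl replicate 3 alone, with 3.89 and 7.64 FPKM in Ctrl and 3.23 and 4.67 FPKM in LA. The 13 choroid plexus markers summed to 7633 FPKM in that library, to 25.1 FPKM in the other Ctrl library and to 62.8 and 95.5 FPKM in LA, and none was at 0. Their part in the high Ly6c1 value was not tested.

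The median log2 fold change over the 8 tested endothelial genes was -0.67, beside a median of -0.012 over all 13518 genes, of which 52.4% were negative. Over all 10 genes it was -0.55, and these medians of a chosen list are description, not a test. Leaving out Ctrl replicate 3 moved the median of the 8 to -0.33, and leaving out Ctrl replicate 2 moved it to -0.81. Among the 8 tested genes 6 had groups that did not overlap, each with LA lower, against 21.0% of all genes tested, while 17.6% of all genes had LA higher and 0 of the 8 did. With one library left out, the lone library of its group is assumed to vary like those of the other group. Limma then called 1 of the 8 genes lower without Ctrl replicate 2 and 0 in the other settings. All genes called lower and higher were 1.41% and 0.266% without Ctrl replicate 2, 0.459% and 0.118% without Ctrl replicate 3, 0.429% and 0.88% without LA replicate 1, and 0.0148% and 0 without LA replicate 2. An exact two-sided permutation test of 2 libraries against 2 cannot give a p below 0.333, so no single gene can pass it.

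The promoters of the genes were looked up as description, and a link between them and the lower values was not tested. Of the 10 genes 6 had an entry in the RefSeq promoter table of GRCm38.p6, namely Eng, Flt1, Kdr, Ly6c1, Tek and Tie1. Cdh5, Pecam1, Esam and Vwf had none. Ly6c1 had 2 entries, for different transcript starts. The 250 bases before a transcript start of that table are shown for Eng, which had one of the widest gaps between the groups, for the VEGF receptor gene Flt1 and for the more upstream start of Ly6c1, the most abundant of the genes. In capitals is GGAA on either strand (TTCC on the strand shown), the core letters that ETS factors such as Erg and Fli1 bind. Eng is at chr2:32646345-32646594 on the plus strand, Flt1 at chr5:147726012-147726261 and Ly6c1 at chr15:75048838-75049087, both on the minus strand. The RefSeq spans of these 2 genes reach further upstream than the starts used, so the Flt1 window lies inside the annotated span (147561604 to 147726438) and the Ly6c1 window partly inside its own.
Eng: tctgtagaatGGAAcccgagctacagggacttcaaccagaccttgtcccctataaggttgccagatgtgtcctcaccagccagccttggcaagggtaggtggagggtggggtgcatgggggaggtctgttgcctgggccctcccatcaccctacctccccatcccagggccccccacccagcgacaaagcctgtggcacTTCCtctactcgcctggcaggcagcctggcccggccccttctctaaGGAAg
Flt1: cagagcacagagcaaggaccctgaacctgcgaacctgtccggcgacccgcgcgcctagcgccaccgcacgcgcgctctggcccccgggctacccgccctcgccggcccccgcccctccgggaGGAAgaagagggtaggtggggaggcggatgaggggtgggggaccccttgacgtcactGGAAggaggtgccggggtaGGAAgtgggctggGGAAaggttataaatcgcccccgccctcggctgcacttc
Ly6c1: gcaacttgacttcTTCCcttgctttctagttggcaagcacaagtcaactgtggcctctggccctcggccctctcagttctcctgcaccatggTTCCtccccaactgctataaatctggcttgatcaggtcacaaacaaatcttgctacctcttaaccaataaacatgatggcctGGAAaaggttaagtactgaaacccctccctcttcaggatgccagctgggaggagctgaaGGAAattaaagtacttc
The letters GGAA occurred 3 times in the Eng window, 4 times in that of Flt1 and 4 times in that of Ly6c1. The windows not shown held them 6 times (the second start of Ly6c1), 7 times (Tie1), 4 times (Kdr) and 2 times (Tek). That second Ly6c1 window, chr15:75048664-75048913, overlaps the one shown, so some letters were counted in both. It and the windows of Tie1 and Kdr also hold exon bases of their own gene. The letters GGAA are common: 93.4% of 32817 promoter windows of the same length held them at least once, with a mean of 2.91. The longer GGAAG, which contains them, was found 2 times for Eng, 3 times for Flt1 and 1 time for Ly6c1 in the windows shown. It was found 4 times at the second start of Ly6c1, 6 times for Tie1, 1 time for Kdr and 0 times for Tek, and in 64.1% of all windows. A longer ETS form, CCGGAAG, was found in 0 of the 7 windows and in 6.9% of all. The letters AGATAA, bound by GATA factors, were found in 0 of the 7 windows and in 9.99% of all. The letters ACAAT, bound by SOX factors, were found 2 times for Tek, 0 times in the other windows and in 27.7% of all. The windows shown also differed in GC content, at 62.4% for Eng, 70.4% for Flt1 and 48.4% for Ly6c1.

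Partners of the 10 genes were read from lists of endothelial genes. Among the other VEGF genes, the ligands Vegfb and Vegfc and the co-receptors Nrp1 and Nrp2 had the smallest p, and limma called 0 of 7 tested genes (0 at an unadjusted p under 0.05). Their median log2 fold change was -0.057 (-0.11 to 0.16 with one library left out), with Vegfb at 0.40, Nrp1 at 0.33, Nrp2 at -0.26 and Vegfc at -0.18. Vegfb was 51.5 and 42.1 FPKM in Ctrl and 51.0 and 75.1 FPKM in LA, so the groups overlapped. The ligands of Tek, the angiopoietins, were low. Angpt1, which activates Tek, was 3.01 and 3.49 FPKM in Ctrl and 2.67 and 2.18 FPKM in LA, with a log2 fold change of -0.31 (adjusted p = 0.759 from limma). All 4 genes of the list of angiopoietins and VE-PTP had LA values under the Ctrl values, as had 20.2% of all genes above 0, but only Angpt1 was tested and Angpt4 was at 0 in a library. Among them Angpt2, the antagonist of Angpt1 in vessels, was 0.81 and 0.77 FPKM in Ctrl and 0.43 and 0.33 FPKM in LA. Ptprb, the phosphatase VE-PTP that acts on Tek and VE-cadherin, was 1.13 and 1.21 FPKM in Ctrl and 0.66 and 0.81 FPKM in LA. Angpt2 and Ptprb were named after their values were seen.

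In the list of the endoglin pathway limma called 0 of 12 tested genes (1 at an unadjusted p under 0.05), 9 had a negative log2 fold change, and the median was -0.15. Leaving out Ctrl replicate 3 gave -0.079, and leaving out LA replicate 1 gave -0.27. Acvrl1, the ALK1 receptor that endoglin assists, was 1.43 and 1.66 FPKM in Ctrl and 0.93 and 0.86 FPKM in LA (log2 fold change -0.42, adjusted p = 0.692 from limma). Tgfbr2, the type II receptor of TGF-beta, had a log2 fold change of -0.50. The BMP targets Id2 and Id3 had -0.49 and -0.43, but -0.17 and -0.12 without Ctrl replicate 3. The junction partners of VE-cadherin and its neighbours gave 0 of 9 called by limma (1 at an unadjusted p under 0.05) with a median of -0.093 (-0.21 without LA replicate 1 and -0.0041 without LA replicate 2), led by Jam3 at 0.47, Ctnna1 at -0.26, F11r at -0.26 and Ctnnb1 at -0.19. Most catenins are made by all cells of the tissue, so their values do not single out the endothelium. F11r had 0.14 without Ctrl replicate 3.

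Endothelial transcription factors had 0 of 7 tested genes called by limma (3 at an unadjusted p under 0.05) and a median log2 fold change of -0.36, with 6 of the 7 negative. Klf4 and Klf2, which respond to blood flow in endothelial cells, had -0.80 and -0.57, or -0.61 and -0.39 without Ctrl replicate 3. Klf4 was 1.58 and 2.37 FPKM in Ctrl and 0.42 and 1.02 FPKM in LA, and the groups did not overlap. Ets2 had -0.36 and Epas1, the hypoxia-inducible factor HIF-2 alpha, -0.38. Erg, an ETS factor of endothelial cells that was too low to be tested and was named after its values were seen, was 0.57 and 0.64 FPKM in Ctrl and 0.33 and 0.26 FPKM in LA.

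Blood-brain barrier genes gave 0 of 12 called by limma (6 at an unadjusted p under 0.05), 11 of 12 negative and a median of -0.48, which was -0.76 without Ctrl replicate 2 and -0.34 without Ctrl replicate 3. Abcb1a, the P-glycoprotein efflux pump, was 3.58 and 3.80 FPKM in Ctrl and 1.37 and 1.15 FPKM in LA, with a log2 fold change of -1.05 (adjusted p = 0.190 from limma). Its replicates were close and its groups far apart, as for Cdh5. The organic anion carrier Slco1a4 had -0.84, the tricellular junction gene Lsr -0.83, and Mfsd2a, the carrier of docosahexaenoic acid, -0.57. Without Ctrl replicate 3 these 3 genes had -0.57, -0.56 and -0.44.

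Genes of endothelial haemostasis had the lowest median of these lists, -1.01 over only 4 tested of 10 measured genes, with 0 called and 4 at an unadjusted p under 0.05 from limma. Over all 10 measured genes the median difference was -0.037. Of the 6 that were too low to be tested, 0 had both LA libraries below Ctrl and 1 had both above. Thbd, the thrombin receptor thrombomodulin, was 8.85 and 5.56 FPKM in Ctrl and 3.06 and 2.23 FPKM in LA. Its log2 fold change was -1.15 (adjusted p = 0.312 from limma). Without Ctrl replicate 3 the adjusted p was 0.0483, from a fit with 1 Ctrl library in which the gap between the Ctrl libraries does not count. Tfpi, the inhibitor of tissue factor, had -1.10, the annexin gene Anxa2 -0.92 and the plasminogen activator gene Plat -0.47. Thbd and Anxa2 are not particular to vessels.

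Further genes found in endothelium generally had 0 of 14 called by limma (3 at an unadjusted p under 0.05), 12 of 14 negative and a median of -0.37. Leaving out either Ctrl replicate 3 or LA replicate 1 gave a median of -0.21. Itm2a was 22.0 and 17.9 FPKM in Ctrl and 12.3 and 12.7 FPKM in LA, and its log2 fold change of -0.63 was -0.77 without Ctrl replicate 3. Podxl, which encodes a sialomucin of the vessel surface, had -0.57, and the adhesion receptors Adgrl4 and Adgrf5 had -0.50 each. Genes of arteries and veins were compared by their own lists. The arterial list had a median of -0.086 over 5 tested genes, with 0 called by limma (0 at an unadjusted p under 0.05), 3 negative and 0 whose groups were apart. Over all 10 measured arterial genes 3 had both LA libraries below Ctrl, beside 20.2% of all genes above 0. Efnb2, the ephrin that marks arteries, had -0.23, Unc5b 0.42, Gkn3 -0.20 and Jag1 -0.086. The venous list had a median of -0.67 over 6 tested genes, with 0 called by limma (2 at an unadjusted p under 0.05). In 5 of the 6 both LA libraries lay below both Ctrl libraries, against 21.0% of all genes tested. Over all 8 measured venous genes the count was also 5, against 20.2% of all genes above 0. Ephb4, the receptor of that ephrin on veins, was 1.48 and 1.63 FPKM in Ctrl and 0.79 and 0.65 FPKM in LA (log2 fold change -0.57, adjusted p = 0.609 from limma), and Nr2f2, the transcription factor of venous identity, had -0.36. The adhesion molecule gene Vcam1 had -0.98 and Lcn2 -0.86, but -0.44 and -0.24 without Ctrl replicate 3. The difference between the arterial and the venous list was not tested, and their medians were -0.27 and -0.34 without Ctrl replicate 3 and 0.099 and -0.99 without Ctrl replicate 2.

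**Figure D3:**
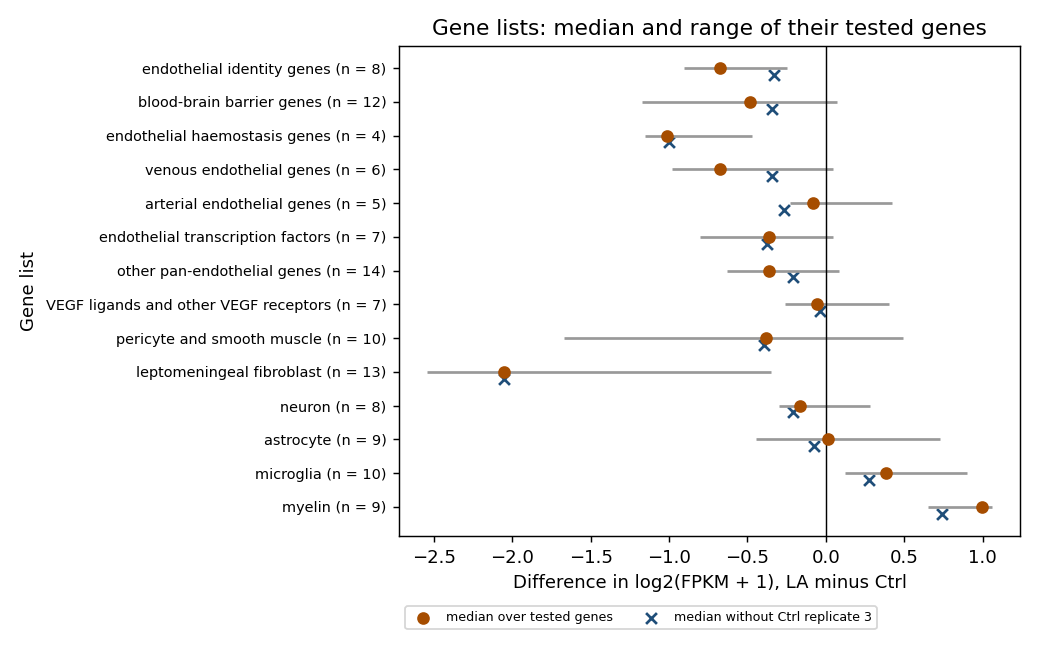
Median (points) and full range (lines) of the log2(FPKM + 1) difference between LA and Ctrl over the tested genes of each list; crosses give the median without Ctrl replicate 3. The endothelial identity genes have a median of -0.67, the arterial list of -0.086, and the list of leptomeningeal fibroblast markers, at -2.05, lies below all other lists plotted.

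The 5 genes outside the list whose 4 values, centred on their mean on the log2 scale, lay nearest to the median profile of the 10 members were Fzd7, Mfsd2a, Agtrap, Abcg2 and Parp3, with Euclidean distances of 0.034 to 0.054. That profile was 0.13 and 0.45 in Ctrl replicates 2 and 3, and -0.20 and -0.34 in LA replicates 1 and 2. Mfsd2a and Abcg2, a drug efflux pump, are also in the list of barrier genes. Mfsd2a was 9.97 and 12.2 FPKM in Ctrl and 7.55 and 6.68 FPKM in LA, and Abcg2 was 8.40 and 10.6 FPKM in Ctrl and 6.32 and 5.89 FPKM in LA. Likeness over 4 libraries is loose, as 126 of the genes tested were within 0.2 of the profile. The members themselves were at 0.175 (Flt1) to 0.798 (Ly6c1) from it.

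Markers of some other cell types were also lower in LA, and those of others were higher or mixed in direction. Leptomeningeal fibroblast markers, genes of the membranes around the brain, had 13 of 13 tested genes negative, 7 called lower and a median of -2.05. Of all genes tested 0.141% were called lower. Their summed level was 275 and 323 FPKM in Ctrl and 88.4 and 102 FPKM in LA, and none was at 0. Meninges carry their own vessels, and their part in the lower endothelial values was not tested. Pericyte and smooth muscle markers had 8 of 10 negative, 1 called lower and a median of -0.38. Vtn, which pericytes and other cells express, was the gene called, at -1.67 (adjusted p = 0.0196 from limma, and 0.0535 without LA replicate 2). It was followed by the smooth muscle genes Tagln at -1.39 and Acta2 at -0.61 and by Anpep at -0.79. These were named for their small p, and the list was mixed. Its tested genes ranged from -1.67 to 0.49, with 2 of them positive. In the other direction, myelin markers had a median of 0.995 with 9 of 9 positive and microglia markers of 0.38 with 10 of 10 positive. Limma called 0 in each, with 9 and 4 at an unadjusted p under 0.05. Those 2 lists summed to 1916 to 2198 FPKM and 308 to 314 FPKM in Ctrl, and to 3408 to 4202 FPKM and 418 to 421 FPKM in LA. Neuron markers had a median of -0.17 (-0.24 to 0.017 with one library left out) and astrocyte markers of 0.011 (-0.20 to 0.29). Both lists were mixed, with 3 positive and 5 negative neuron markers, and 6 positive and 3 negative astrocyte markers. The astrocyte markers ranged from -0.445 to 0.728. Limma called 0 in each list, with 0 and 3 at an unadjusted p under 0.05.

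Endothelial levels were therefore also read relative to other cell types of the same library. The summed FPKM of the endothelial genes without Ly6c1 was 17.8 and 22.4 in Ctrl and 12.5 and 9.61 in LA. Per 100 FPKM of neuron markers it was 0.803 and 1.09 in Ctrl against 0.642 and 0.405 in LA. Per 100 FPKM of astrocyte markers it was 2.17 and 2.89 against 1.33 and 1.17. The groups did not overlap in either ratio. Per 100 FPKM of pericyte and smooth muscle markers it was 20.4 and 27.3 in Ctrl against 30.1 and 22.5 in LA, and the groups overlapped. This rested on Vtn, which was left out after its values were seen. Without that gene the ratio was 48.9 and 61.3 in Ctrl against 44.1 and 35.7 in LA, and the groups were apart. Vtn was a larger part of the marker sum in Ctrl than in LA. Leaving it out therefore had to raise the Ctrl ratios more. Per 100 FPKM of leptomeningeal markers the direction was the opposite, with 6.49 and 6.95 in Ctrl and 14.1 and 9.41 in LA. A difference in tissue makeup between the libraries and the treatment cannot be told apart here.

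**Figure D4:**
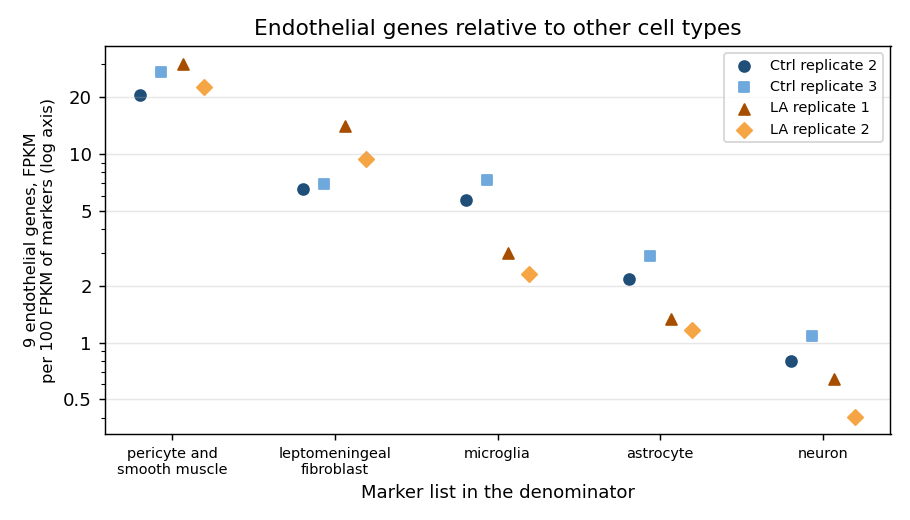
Summed FPKM of 9 endothelial identity genes (all but Ly6c1) per 100 FPKM of the markers of other cell types in the same library, on a log axis; each point is 1 library. The LA libraries lie below the Ctrl libraries relative to microglia, astrocyte and neuron markers, above them relative to leptomeningeal markers, and among them relative to pericyte and smooth muscle markers, where Vtn decides the order.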

How the data were processed

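Messenger RNA of the hippocampus of 4 libraries was sequenced, 2 Ctrl and 2 LA. The authors deposited FPKM values per gene and library, rounded to 2 decimals. TopHat2, Cufflinks and the GRCm38 build appear in the submitters' processing notes, and versions, annotation and read totals are not given in the sources used. Columns were mapped to libraries by name. Coordinates are from RefSeq GRCm38.p6, in which 18293 of the 19230 gene identifiers were found, and 11 symbols that had turned into dates were restored through them.

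Genes whose mean reached 1 FPKM were tested on log2(FPKM + 1) with limma 3.58.1 in R 4.3.3 (lmFit, eBayes with a trend, two-sided). Benjamini-Hochberg adjustment ran over 13518 genes. The procedure was tested on simulated data. The values were not scaled further. Relative depth was estimated from the smallest steps between the low FPKM values of single-transcript genes, and approximate fragment numbers carry that estimate's error.

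The members and the gene lists were chosen with earlier results of these data known. The genes named were the members, up to 4 genes of smallest p in each list described by its genes, the 5 nearest profiles, Ly6c2 and Ttr; Angpt2, Ptprb, Erg and Cldn5 were added after their values were seen. Marker lists other than that of pericytes and smooth muscle were described by counts and sums, with Lyz2 also named for its share of a sum. The alternatives were each library left out, quantile normalization or median-ratio scaling, no filter or one at 5 FPKM, pseudocounts of 0.1 and 0.5, and limma with robust estimation or with no trend.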

Additional observations from a re-analysis of the deposited data

How the results depend on the processing

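All tested members kept a negative log2 fold change under every alternative run. None was called under any of them except Ly6c1 without Ctrl replicate 2, so 0 to 1 of 8 were called over the libraries left out. The members' median was -0.87 with a pseudocount of 0.1, against -0.67, and -0.81 to -0.33 over the libraries left out. With a mean of at least 5 FPKM only Ly6c1 of the 10 remained. Without a filter 0 of 10 were called by limma, with 4 at an unadjusted p under 0.05. In all, 6 of the 8 tested members had groups apart with quantile normalization, as with the deposited values. Over all genes limma called 19, 40 with robust estimation, 0 of 19080 without a filter (1333 at an unadjusted p under 0.05) and 2 to 227 over the libraries left out, 78 without Ctrl replicate 3 and 177 without LA replicate 1. No paired analysis was possible because the groups share only replicate number 2.

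Signs of uncalled genes changed over the libraries left out for F11r (-0.66 to 0.14), Gkn3 (-0.50 to 0.10), Jag1 (-0.35 to 0.18), Ly6e (-0.16 to 0.67), Ly6a (-0.95 to 0.28) and Lypd1 (-0.12 to 0.28). Without Ctrl replicate 2, with 1 Ctrl library in the fit, calls were gained by Ly6c1, Vcam1 (adjusted p = 0.0103 from limma), Lcn2 (adjusted p = 0.0121) and Tagln (adjusted p = 0.00601), and without Ctrl replicate 3 by Thbd. Vtn lost its call without a filter (adjusted p = 0.319 from limma) and without LA replicate 2 (adjusted p = 0.0535). The ratio of endothelial genes to pericyte and smooth muscle markers, LA over Ctrl, was 1.10 and became 0.725 without Vtn, an alternative chosen after seeing the data. Among 696 refitted values for single genes, 681 had the same sign and the same side of the threshold as reported. For the others the cause was not tested. The low FPKM of most members, and 2 libraries per group, limit what can be shown.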

Other observations

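Of the Notch genes that act in vessels, limma called 0 of 8 tested (2 at an unadjusted p under 0.05), 7 of 8 were negative and the median log2 fold change was -0.20, or -0.38 without LA replicate 1 and -0.32 without Ctrl replicate 2. The ligand gene Jag2 was 9.0 and 9.47 FPKM in Ctrl and 6.98 and 5.61 FPKM in LA (log2 fold change -0.49, adjusted p = 0.609 from limma). Heyl, a Notch target, was 1.44 and 1.61 FPKM in Ctrl and 0.47 and 0.91 FPKM in LA, a log2 fold change of -0.59. Dll1 had -0.33 and Notch1 -0.32.

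Markers of blood cells were read as well. Erythrocyte markers summed to 1645 and 1610 FPKM in Ctrl and to 3258 and 1863 FPKM in LA, with 5 of 5 tested genes positive, 0 called by limma (1 at an unadjusted p under 0.05) and a median of 0.59, which ranged from 0.165 (LA replicate 1 left out) to 1.03 (LA replicate 2 left out). Monocyte and granulocyte markers summed to 31.4 and 40.5 FPKM in Ctrl and to 24.8 and 30.7 FPKM in LA. The LA sums were below both Ctrl sums by a small margin. Most of each sum was Lyz2, at 24.5 and 27.5 FPKM in Ctrl and 20.7 and 18.8 FPKM in LA. Of the 3 tested genes in this list limma called 0, with 1 (Lyz2) at an unadjusted p under 0.05. For the other tested genes the groups overlapped. None of these lists was tested against the endothelial genes.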
